A study of Mus musculus with 2 samples.

Results

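The glucose and sugar transporter genes described here are 9 of the 21938 protein-coding genes outside the mitochondrial chromosome in GENCODE M21: 5 of the sodium-coupled SLC5 family (Slc5a1, Slc5a2, Slc5a9, Slc5a10 and Slc5a11) and 4 of the facilitative SLC2 family (Slc2a1, Slc2a2, Slc2a4 and Slc2a5). They were chosen by name and family, not by any measured value. Open chromatin was mapped by DNase-seq, in which the nuclease DNase I cuts accessible DNA and the cut ends are sequenced, in whole kidney of 2 male B6CASTF1/J mice aged 25 days. These mice are first-generation hybrids of the C57BL/6J and CAST/EiJ strains, and the labels name no treatment and no other genotype. Each library came from its own biosample and animal number, although the labels give both the same donor code, and both belong to a single group. With n = 2 and no second condition, every value is a description and no test between the animals was made.

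Glucose filtered by the kidney is taken back in the proximal tubule by sodium-coupled transporters (SGLTs) of the luminal membrane, and leaves the cell on the blood side through facilitative transporters (GLUTs). The early tubule relies on the high-capacity transporter encoded by Slc5a2 (SGLT2), the target of the gliflozin drugs, and the late tubule on the high-affinity one encoded by Slc5a1 (SGLT1). An open promoter or enhancer is where transcription factors can bind. It is not a measure of transcript or protein, and in whole tissue fewer cells with an open site and less opening in each cell cannot be told apart.

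The libraries differed in yield. Replicate 1 held 125393 peaks over 22.13 Mb and 237471 footprints, which are short stretches protected from cutting inside open DNA, and replicate 2 held 177001 peaks over 31.06 Mb and 493495 footprints. Replicate 2 thus had 1.412 times the peaks and 2.078 times the footprints, so a site found there alone may lie below the reach of the other library. Peak heights below are the authors' values in their own signal unit. The median step between neighbouring distinct low heights was 1.72 times larger in replicate 1. The median heights over all peaks were 0.8717 in replicate 1 and 0.6905 in replicate 2. A promoter peak is a peak within 500 bp of any annotated transcription start site (TSS) of the gene, its height is that of the highest such peak, and a locus is the gene body with 10 kb on each side. Kidney markers were open at their promoters in both libraries for 6 of 6 genes of the early proximal tubule, 5 of 6 of its late segment, 5 of 7 of other nephron segments and podocytes, and 4 of 4 of endothelium. None of the 4 liver, 4 small-intestine, 4 adipocyte, 4 skeletal-muscle or 4 erythroid markers had a promoter peak in both libraries. Of the islet markers 2 of 4 did (Nkx6-1 and Ins2), and of the testis markers 1 of 4 (Dazl). Over all protein-coding genes the share with a promoter peak in both libraries was 65.3%.

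Of the 9 transporter genes, 8 had a promoter peak in both libraries, against 65.3% of all protein-coding genes. On the stricter peak list the count was again 8, against a background of 62%. A promoter peak overlapped by a footprint was found in both libraries for 8 of the 9 genes, against 62.8% of all. Slc2a5 was the exception in each count. In the footprint count this holds by definition, since Slc2a5 had no promoter peak in replicate 1. The heights fell into a wide range: Slc2a1 and Slc2a4 stood above 5 in both libraries, Slc5a11 lay between, and the others lay near or below 2. The median over the 8 genes was 1.58 in replicate 1 and 1.65 in replicate 2, against 7.49 and 7.01 over the 14329 protein-coding genes with a promoter peak in both libraries, and 6 of the 8 were below that all-gene median in each library.

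**Figure D1:**
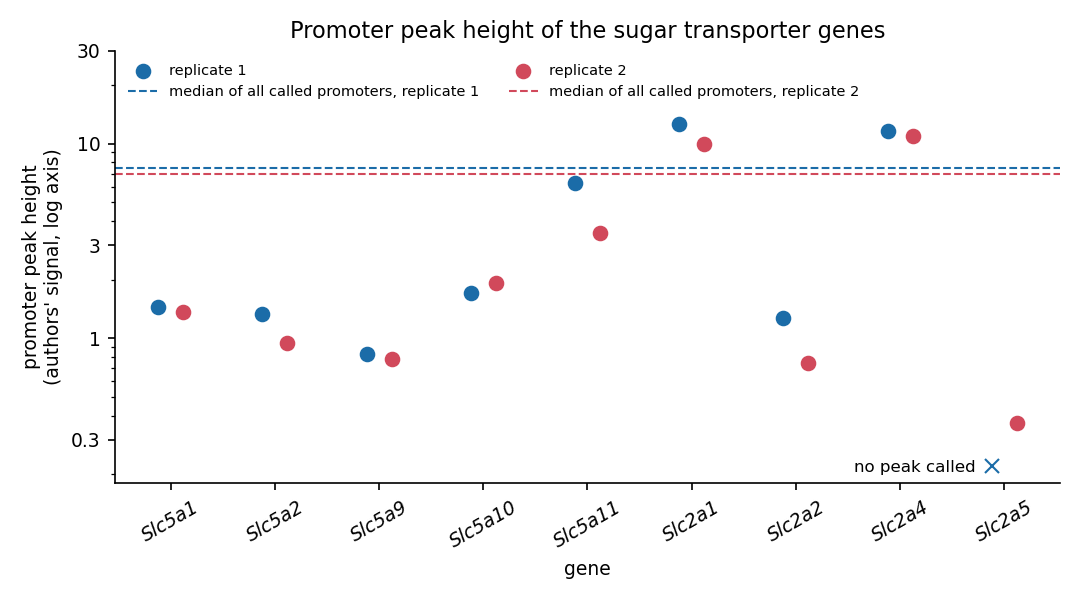
Promoter peak height (authors' signal, log axis) of each of the 9 genes in replicate 1 (blue) and replicate 2 (red); dashed lines are the medians over all protein-coding genes with a promoter peak in both libraries, and the cross marks a gene with no peak called. Slc2a1 and Slc2a4 lie above both lines, and Slc2a5 has a peak in replicate 2 only.

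CpG-rich promoters are known to be open in most tissues, and promoter height went with CpG content over all genes here. The CpG content was taken as the ratio of observed to expected CpG in the 500 bp on each side of a TSS, and all genes were split into 10 classes. In the lowest class 6.43% of genes had a promoter peak in both libraries, with a median height of 0.761 in replicate 1, and in the highest class 97.7% did, with a median of 11.2. The SLC5 genes lay mostly in the low classes: Slc5a9 (ratio 0.0763) and Slc5a11 (0.129) in class 1, Slc5a2 (0.213) and Slc5a10 (0.233) in class 3, and Slc5a1 (0.52) in class 5. Of the SLC2 genes, Slc2a2 (0.177) was in class 2, Slc2a5 (0.434) in class 4, Slc2a4 (0.59) in class 5 and Slc2a1 (0.808) in class 8. Read against the promoters called in the same class, Slc5a10 was near the middle in both libraries, at percentiles 57.6 in replicate 1 and 55.7 in replicate 2, and so was Slc5a9, at 52.8 and 42.9. Slc5a2 (48 and 29.5) and Slc2a2 (55.7 and 25.1) were near the middle in replicate 1 and lower in replicate 2. Slc5a11 was at percentile 95.4 of its class in replicate 1 and 88.3 in replicate 2. Slc5a1 was low for its class, at percentiles 20.9 and 20.7, while Slc2a4, in the same class, was at 86.2 and 79.8. Slc2a1 was nearer the middle of class 8, at percentiles 65 in replicate 1 and 53.5 in replicate 2.

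**Figure D2:**
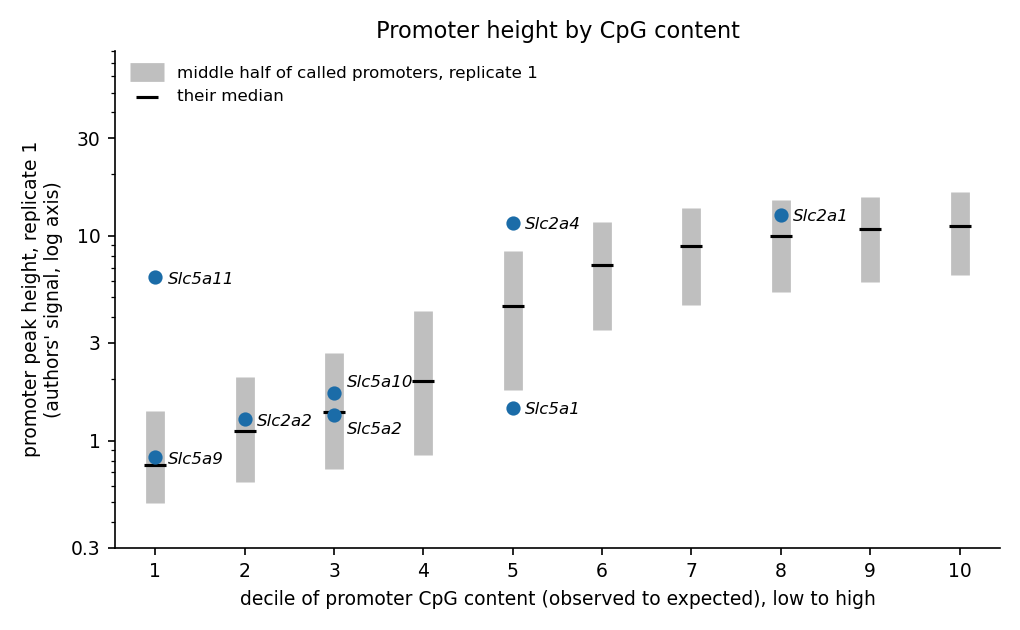
Promoter peak height in replicate 1 (log axis) against the class of promoter CpG content; grey bars span the middle 50% of all promoters called in both libraries, black marks are their medians, and blue points are the 8 transporter genes with a peak in both libraries. Slc5a11 lies far above the bar of the lowest class, and Slc5a1 lies below the bar of class 5.

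Slc5a2 is a short gene of 6.774 kb on mouse chromosome 7 (chr7:128265657-128272430, plus strand, mm10). Its promoter peak, over the TSS and the start of exon 1 (chr7:128265481-128265760), had a height of 1.33 in replicate 1 and 0.939 in replicate 2 (mean 1.14 ± 0.279, SD, n = 2). A second peak in intron 1 (chr7:128266109-128266419) had heights of 0.914 and 0.661. Both were lower in replicate 2 than in replicate 1. The opposite held for the other shared sites of the gene: a site in intron 4, 1944 bp from the 5′ end, had 0.897 in replicate 1 and 1.59 in replicate 2, and a site 8536 bp upstream had 1.07 and 1.79. In replicate 2 the upstream site was thus the highest of the locus, and in replicate 1 the promoter was. The locus held 4 peaks and 7 footprints in replicate 1 and 6 peaks and 13 footprints in replicate 2.

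Slc5a1 spans 58.65 kb (chr5:33104219-33162870, plus strand). Its promoter peak covered the TSS and exon 1 (chr5:33104061-33104480) with heights of 1.45 and 1.36 (mean 1.41 ± 0.0648, SD, n = 2), a difference of -0.09 on the log2 scale between the libraries. A site in intron 5, 39.1 kb from the 5′ end (chr5:33143181-33143380), differed more, with 1.01 in replicate 1 and 2 in replicate 2. With a peak at 33144121 in intron 6 (0.41 and 0.974) it formed a small group of sites deep in the gene. The locus held 6 and 8 peaks, and 11 and 25 footprints. At 0.089 ± 0.018 peaks per kb (SD, n = 2) it was the only one of the 9 loci below the median density of all protein-coding genes, 0.102. The stretch upstream of the TSS that lies inside the promoter peak in both libraries (chr5:33104081-33104218, plus strand, GRCm38.p6 reference) is given with its footprinted bases, since this promoter is a low one in a CpG class where most genes are open. Capitals here and in the sequences that follow mark bases inside footprints of both libraries, on the gene's own strand; they come from the reference and not from the hybrid animals. It reads as follows.
Slc5a1 promoter: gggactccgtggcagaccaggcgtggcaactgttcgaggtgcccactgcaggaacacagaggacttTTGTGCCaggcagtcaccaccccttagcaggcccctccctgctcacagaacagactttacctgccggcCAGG

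Slc5a9 (SGLT4) and Slc5a10 (SGLT5) encode SGLTs that carry mannose, fructose and related sugars. Slc5a9 (chr4:111875375-111902918, minus strand) was not open at its 5′ end: no base within 500 bp of that end was listed at a false discovery rate below 0.05 in either library. The promoter peak counted for it lay at the TSS of a shorter annotated transcript, over exon 2 at 4167 bp (chr4:111898581-111898920), with heights of 0.829 and 0.785 (mean 0.807 ± 0.0312, SD, n = 2). With the 5′ end taken as the only TSS the gene had no promoter peak, and with a window of 1000 bp the mean height was 1.62, from a site in intron 2. Its highest sites were a pair in intron 11. One (chr4:111886681-111886880) measured 2.85 in replicate 1 and 4.19 in replicate 2, and the other (chr4:111886001-111886180) 2.06 and 3.11. Both stood above every other site of the locus in both libraries.

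Slc5a10 (chr11:61672781-61720826, minus strand) had a promoter peak at each of its annotated TSSs. The site at the 5′ end (chr11:61720701-61720920) measured 1.49 in replicate 1 and 1.93 in replicate 2, and the site at the other TSS, in intron 1, (chr11:61719897-61720180) measured 1.71 and 1.26. The higher of the pair was therefore a different peak in each library, and their order did not hold between the animals. Far more open was a site in intron 10, 20.7 kb from the 5′ end (chr11:61700061-61700260), with heights of 5 and 5.73, followed by a site in intron 6 (chr11:61714721-61714900) with 2.99 and 4.92. Intron 10 also holds the start of the gene Fam83g, whose TSS sites measured 7.26 and 4.55 (chr11:61684301-61684500) and 3.11 and 3.97 (chr11:61683941-61684160). The 20.7 kb site lies in the body of both genes, and which of them it serves was not tested. The locus held 11 and 13 peaks, and 27 and 50 footprints.

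The highest sites of these genes away from a TSS are shown because they were more open than the promoters: Slc5a9 intron 11 (chr4:111886701-111886880) and Slc5a10 intron 10 (chr11:61700061-61700260), beside the Slc5a10 5′ end upstream of the transcribed part (chr11:61720800-61720894), all on the minus strand. The intron sites here, and the sites away from a TSS printed for Slc2a2, Slc2a1 and Slc2a4, were chosen for printing after their heights were seen. In the Slc5a9 stretch the letters CCACNAG, a core of the site of the insulator protein CTCF, match on the opposite strand at base 92, inside a footprint of both libraries.
Slc5a9 intron 11: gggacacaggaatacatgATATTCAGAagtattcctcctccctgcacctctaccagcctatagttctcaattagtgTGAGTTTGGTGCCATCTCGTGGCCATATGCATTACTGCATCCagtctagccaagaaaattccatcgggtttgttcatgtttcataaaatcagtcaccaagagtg
Slc5a10 intron 10: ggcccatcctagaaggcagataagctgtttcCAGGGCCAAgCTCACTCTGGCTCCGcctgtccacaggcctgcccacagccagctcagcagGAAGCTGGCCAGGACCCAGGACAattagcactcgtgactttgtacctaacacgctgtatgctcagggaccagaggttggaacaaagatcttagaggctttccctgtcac
Slc5a10 5′ end: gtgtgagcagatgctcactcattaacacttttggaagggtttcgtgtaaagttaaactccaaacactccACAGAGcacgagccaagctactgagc

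Slc5a11 encodes a sodium-coupled transporter of myo-inositol (SMIT2), an osmolyte of the kidney. The gene spans 58.47 kb (chr7:123214780-123273253, plus strand), and its promoter peak at the 5′ end (chr7:123214581-123214800) had heights of 6.27 in replicate 1 and 3.47 in replicate 2 (mean 4.87 ± 1.98, SD, n = 2). The log2 ratio of replicate 2 to replicate 1 was -0.86, the widest gap between the libraries among the 8 promoters. Both values still exceeded every other site of the locus. A second TSS in exon 3, 20.8 kb into the gene, carried a low peak of 0.684 and 0.735, and the highest site away from a TSS, 9289 bp upstream (chr7:123205401-123205580), measured 2.47 in both libraries. The locus held 7 and 10 peaks, and 12 and 25 footprints. The promoter stretch (chr7:123214581-123214779, plus strand) is given because it was the most open among the CpG-poor promoters of the 9 genes, and it carries 52 footprinted bases. It holds the SP/KLF letters GGGCGG at base 17 and CCAAT at base 124, both outside the shared footprints.
Slc5a11 promoter: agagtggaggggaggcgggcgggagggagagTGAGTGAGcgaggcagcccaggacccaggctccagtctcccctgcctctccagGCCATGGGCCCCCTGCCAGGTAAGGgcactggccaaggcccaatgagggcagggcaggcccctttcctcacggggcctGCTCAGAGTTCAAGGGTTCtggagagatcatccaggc

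Slc2a2 encodes GLUT2, the low-affinity exit route for glucose on the blood side of the early tubule, which also serves liver, intestine and islet cells. Its gene (chr3:28697903-28731359, plus strand) had a modest promoter peak over exon 1 (chr3:28697901-28698100), with 1.27 in replicate 1 and 0.745 in replicate 2 (mean 1.01 ± 0.374, SD, n = 2). The highest site of the locus was 2162 bp upstream (chr3:28695621-28695860), with 1.62 and 2.01, above the promoter in both libraries. A site over exon 2 at 7911 bp (chr3:28705587-28706040) measured 0.966 and 1.79. A site in intron 1 at 1908 bp measured 1.03 and 1.12, and held a match to CAAAGTCCA, the site of the tubule and liver factor HNF4, outside shared footprints. The locus had 8 and 9 peaks, and 16 and 33 footprints. Of the markers of other tissues that use this gene, 4 of 4 intestinal ones had no promoter peak in either library, and of the 4 liver ones only Ttr had one, at 0.283 in replicate 2. The islet markers were mixed: Nkx6-1 was at 2.11 and 1.87, above the Slc2a2 promoter in both libraries, the insulin gene Ins2 was at 0.41 and 0.298, Pdx1 had a peak of 0.273 in replicate 1 only, and Ins1 had none. Their part in the Slc2a2 peaks was not tested. The upstream stretch shared by both libraries (chr3:28695621-28695840, plus strand) is given because its HNF4 core letters CAAAGT, at base 55, overlap the edge of a footprint found in both.
Slc2a2 upstream site: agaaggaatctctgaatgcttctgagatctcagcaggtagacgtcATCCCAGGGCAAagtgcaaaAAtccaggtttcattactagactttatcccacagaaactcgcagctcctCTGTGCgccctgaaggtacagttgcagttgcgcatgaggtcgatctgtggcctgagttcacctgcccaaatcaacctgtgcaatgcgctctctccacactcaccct

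Slc2a1 encodes GLUT1, the widely expressed basal glucose transporter, used in the kidney by the late tubule and other segments. Its promoter was the most open of the 9 in replicate 1 and second in replicate 2: the peak over the TSS and exon 1 (chr4:119108641-119108820) had heights of 12.6 and 9.95 (mean 11.3 ± 1.89, SD, n = 2). A second peak in intron 1, 490 bp downstream (chr4:119109101-119109300), measured 6.86 and 4.15. Intron 2 held the next site, 12.7 kb from the 5′ end (chr4:119121361-119121540), with 5.06 and 6.88, and a site 2770 bp upstream had 2.71 and 3.67. The promoter sites were thus higher in replicate 1 and these outer sites higher in replicate 2. The locus (gene at chr4:119108711-119137983, plus strand) held 10 and 15 peaks and the most footprints of any of the 9, 31 and 59. Endothelium and red cells also carry this transporter. Of their markers, 4 of 4 endothelial promoters were open in both libraries, Kdr the highest at 4.59 and 5.44, while none of the 4 erythroid ones was open in both. Their part in the Slc2a1 peaks was not tested. The promoter stretch upstream of the TSS (chr4:119108641-119108710) and the intron 2 site (chr4:119121361-119121540), both on the plus strand, are given as the main proximal and distal sites. The promoter stretch holds the SP/KLF letters GGGCGG on the opposite strand at base 60, outside the shared footprint. The promoter peak runs past the printed stretch. Its central 150 bp held 2 matches to GGGCGG, 1 of them in a footprint of both libraries, and a match to CCAAT in such a footprint. The intron site holds the AP-1 letters TGANTCA at base 150 inside a footprint of both libraries.
Slc2a1 promoter: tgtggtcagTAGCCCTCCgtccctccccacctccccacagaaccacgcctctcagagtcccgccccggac
Slc2a1 intron 2: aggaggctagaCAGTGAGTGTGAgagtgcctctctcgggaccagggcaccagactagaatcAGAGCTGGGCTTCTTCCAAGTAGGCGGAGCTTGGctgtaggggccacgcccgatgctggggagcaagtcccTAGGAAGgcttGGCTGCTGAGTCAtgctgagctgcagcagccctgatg

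Slc2a4 encodes GLUT4, the insulin-responsive transporter of muscle and fat. In the kidney its promoter (chr11:69948181-69948360, minus strand) was as open as that of Slc2a1, with heights of 11.6 and 10.9 (mean 11.2 ± 0.462, SD, n = 2). The Slc2a1 and Slc2a4 ranges overlapped. A further site 883 bp upstream (chr11:69948981-69949160) measured 6.41 in replicate 1 and 11 in replicate 2, a log2 ratio of 0.78. Of the markers of the tissues that the gene is known for, none of 4 adipocyte promoters (Adipoq, Plin1, Cidec and Lep) had a peak in either library, and of the 4 muscle promoters only Acta1 did, with 0.308 in replicate 2. The loci of these markers did hold peaks, at a median density of 0.188 per kb for the adipocyte list and 0.11 for the muscle list. The part of these tissues in the Slc2a4 peaks was not tested. Slc2a4 is short (5.65 kb, chr11:69942539-69948188), and its locus had the highest peak density of the 9, at 0.468 ± 0.11 peaks per kb (SD, n = 2), percentile 98.6 of all protein-coding genes. The density is not the gene's own alone, since 8 of its 15 sites lay in the 3′ flank, in or beside the neighbouring gene Ybx2. At a Ybx2 TSS a site measured 8.85 and 9.05 (chr11:69935541-69935780). The highest site of the flank (chr11:69934261-69934420), with 13.2 and 9.64, was beyond that TSS and 13.8 kb from the Slc2a4 5′ end. It was the highest site in replicate 1 over all 9 loci, and is shown for that reason, on the minus strand. At base 88 it matches the CTCF consensus, on the opposite strand and within footprints of both libraries.
Slc2a4 3′ flank: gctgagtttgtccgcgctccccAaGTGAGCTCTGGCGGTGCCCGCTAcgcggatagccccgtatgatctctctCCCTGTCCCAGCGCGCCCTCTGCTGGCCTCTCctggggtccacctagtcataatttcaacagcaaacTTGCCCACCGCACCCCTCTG

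Slc2a5 encodes GLUT5, the fructose transporter of the intestine and of the late tubule. It was the only one of the 9 genes without a promoter peak in both libraries. Its TSS (150119283, gene at chr4:150119283-150144169, plus strand) had a narrow peak in replicate 2 alone (chr4:150119214-150119296, height 0.368), on no stricter list. That peak also lies within 500 bp of a TSS of another gene, Gm13093. Replicate 1 listed 74 bases (7.39%) of the TSS window at a false discovery rate below 0.05, the lowest rate being 4.47e-04, and replicate 2 listed 162 bases (16.2%), down to 6.26e-10. The window thus held listed bases in replicate 1, although no peak was called there. The first strong site came just outside the window, over exon 2 at 658 bp (chr4:150119841-150120040), with 3.22 and 3.13. With a window of 1000 bp the gene had a promoter peak in both libraries and a mean height of 3.18, and with all annotated transcripts, an alternative chosen after seeing the data, the mean was 1.21.

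The rest of the Slc2a5 locus was open. Its 8 and 15 peaks put it at percentile 87.5 of all protein-coding genes in peak density. Sites in intron 7 (chr4:150136821-150137000, 4.16 and 4.1), in intron 6 (chr4:150132961-150133180, 3.32 and 4.04) and 6212 bp upstream (chr4:150112981-150113160, 3.09 and 4.78) each exceeded the promoter peaks of Slc5a1, Slc5a2, Slc5a9, Slc5a10 and Slc2a2 in both libraries. Of its 15 sites 7 were called in replicate 2 only, the most of any of the 9 genes. In replicate 2 these ran from 0.368 to 1.05. A site in intron 5 (chr4:150128621-150128940, 1.21 and 1.22) held a match to the longer HNF4 direct repeat, added after the sequences were seen, inside a footprint of both libraries. The intron 7 stretch, on the plus strand, is shown as the highest site of the locus in replicate 1. It carries 83 footprinted bases and a match to the CTCF consensus at base 86, within them.
Slc2a5 intron 7: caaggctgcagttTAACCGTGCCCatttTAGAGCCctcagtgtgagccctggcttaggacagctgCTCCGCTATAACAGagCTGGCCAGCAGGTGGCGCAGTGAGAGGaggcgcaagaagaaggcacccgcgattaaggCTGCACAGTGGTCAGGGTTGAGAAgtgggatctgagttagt

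**Figure D3:**
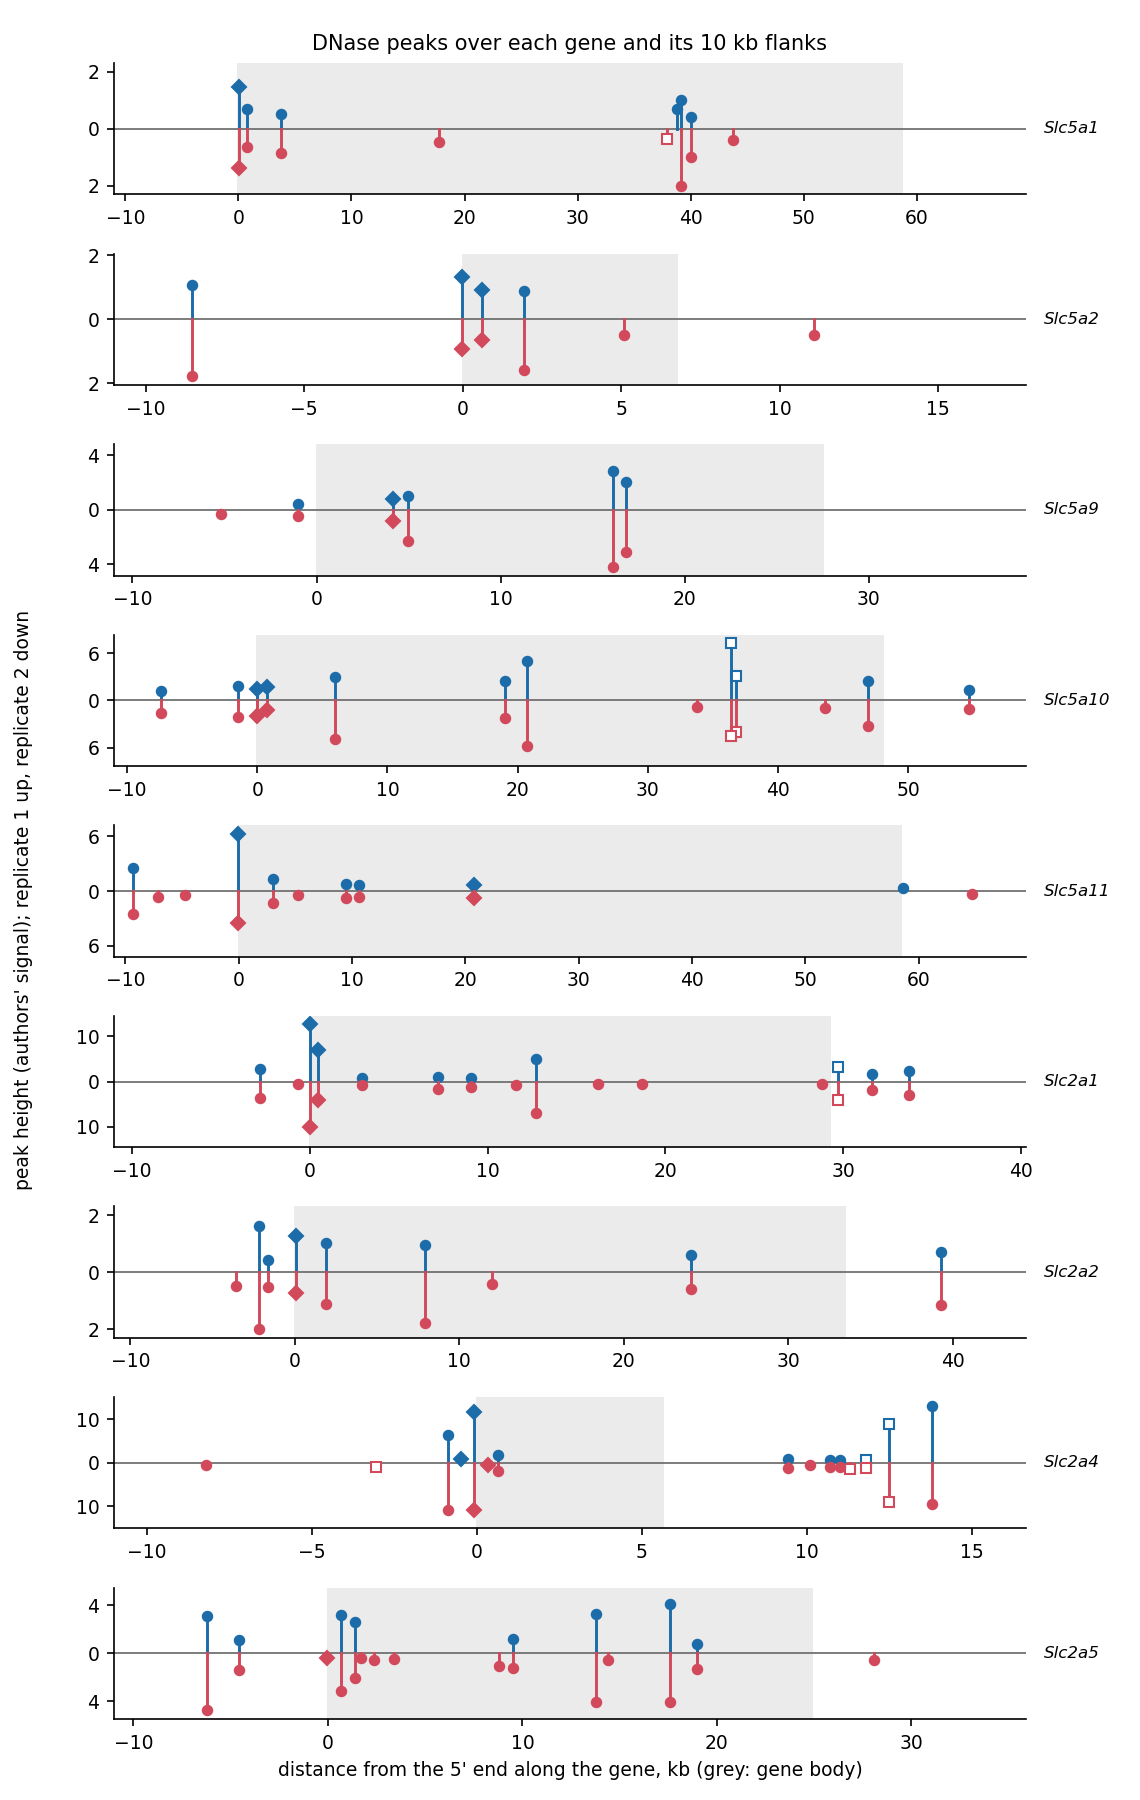
Height of every peak (authors' signal) over each gene and 10 kb on each side against distance from the gene's 5′ end in kb, with replicate 1 upward in blue and replicate 2 downward in red; diamonds lie within 500 bp of a TSS of the gene, open squares at a TSS of another gene, and grey is the gene body. Slc5a9, Slc5a10, Slc2a2, Slc2a4 and Slc2a5 have their highest sites away from their own TSSs in both libraries.

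Leaving aside sites at a TSS of another gene, the highest shared site was away from the gene's own TSSs for 5 of 9 genes in replicate 1 and for 7 of 9 in replicate 2. The share of all protein-coding genes with this pattern was not computed, so these counts have no background. For Slc2a4 in replicate 2 the lead was narrow, 11 at the site 883 bp upstream against 10.9 at the promoter. Slc5a11 and Slc2a1 were the genes whose promoter led in both. Over all 9 loci the peaks merged into 99 sites, of which 65 were called in both libraries, 3 in replicate 1 only and 31 in replicate 2 only. Those of replicate 2 only were low, from 0.308 to 1.35 with a median of 0.497, against a median of 1.79 for shared sites in that library. By position, 49 of the 99 lay in introns, 9 over exons, 23 in the 5′ flanks and 17 in the 3′ flanks. A footprint was found in both libraries in 60 of the 65 shared sites. The share over all shared sites of the genome was not computed. At promoters of all protein-coding genes, 13785 genes had a peak with a footprint in both libraries, of 14329 with a peak in both. Of the 69 peaks of replicate 1 in these loci, 66 recurred in replicate 2 (95.7%, exact 95% binomial interval 87.8 to 99.1), against 87.6% of all peaks. Of the 96 peaks of replicate 2, 65 recurred in replicate 1 (67.7%, 57.4 to 76.9), against 62.2% of all peaks. The intervals cover counting error only.

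The libraries were not shifted evenly. Shared sites at a TSS of one of the 9 genes were lower in replicate 2 in 10 of 12 cases, with a median log2 ratio of replicate 2 to replicate 1 of -0.39 (SD 0.38 over sites). Shared sites away from any TSS were higher in replicate 2 in 37 of 48 cases, with a median of 0.31 (SD 0.39). Slc5a10 and Slc5a11 each supplied 1 of the 2 TSS sites that were higher in replicate 2, the 5′ end of Slc5a10 and the exon 3 TSS of Slc5a11. The same split ran through the whole genome in a weaker form: pairs of overlapping peaks near a TSS had a median of -0.04, with 47% higher in replicate 2, and pairs away from a TSS 0.24, with 69.4% higher. How the authors scaled their heights is not given in the sources used, and the libraries also differed in yield. The cause of the split by position was not tested. With 1 library per animal, the parts of scaling, library and animal in these ratios cannot be told apart.

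**Figure D4:**
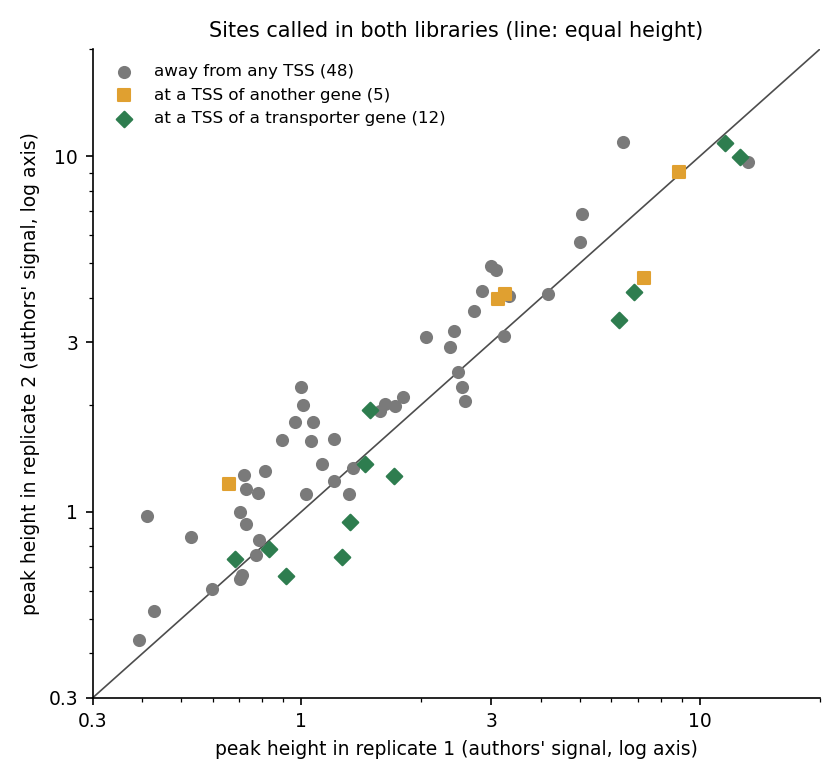
Peak height in replicate 2 against replicate 1 (both log axes, authors' signal) for the 65 sites called in both libraries, by position; the line marks equal height. Of the 12 green diamonds, at a TSS of a transporter gene, 10 lie below the line, and of the 48 grey points, away from any TSS, 37 lie above it.

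Peak density ran from Slc5a1 at 0.089 to Slc2a4 at 0.468 peaks per kb, and 8 of the 9 loci were above the all-gene median of 0.102. The median over the 9 was 0.176. Each SD includes the higher peak yield of replicate 2, which all 9 loci shared. Slc2a1 (0.254 ± 0.0718, SD, n = 2) and Slc2a5 (0.256 ± 0.11) followed Slc2a4. Their order differed between the libraries, with 0.203 and 0.178 in replicate 1 and 0.304 and 0.334 in replicate 2. Slc5a2 (0.187 ± 0.0528), Slc5a10 (0.176 ± 0.0208) and Slc2a2 (0.159 ± 0.0132) formed the middle. Slc5a10 was the highest of these in replicate 1 (0.162) and Slc5a2 in replicate 2 (0.224). Slc5a9 (0.116 ± 0.0149), Slc5a11 (0.108 ± 0.027) and Slc5a1 formed the lower end. In footprints per kb the order was alike at the top: Slc2a4 had 0.858 in replicate 1 and 2.14 in replicate 2, and Slc2a1 had 0.629 and 1.2. At the low end Slc5a1 had 0.14 and 0.318. All 9 loci had more footprints in replicate 2, as did the whole library.

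**Figure D5:**
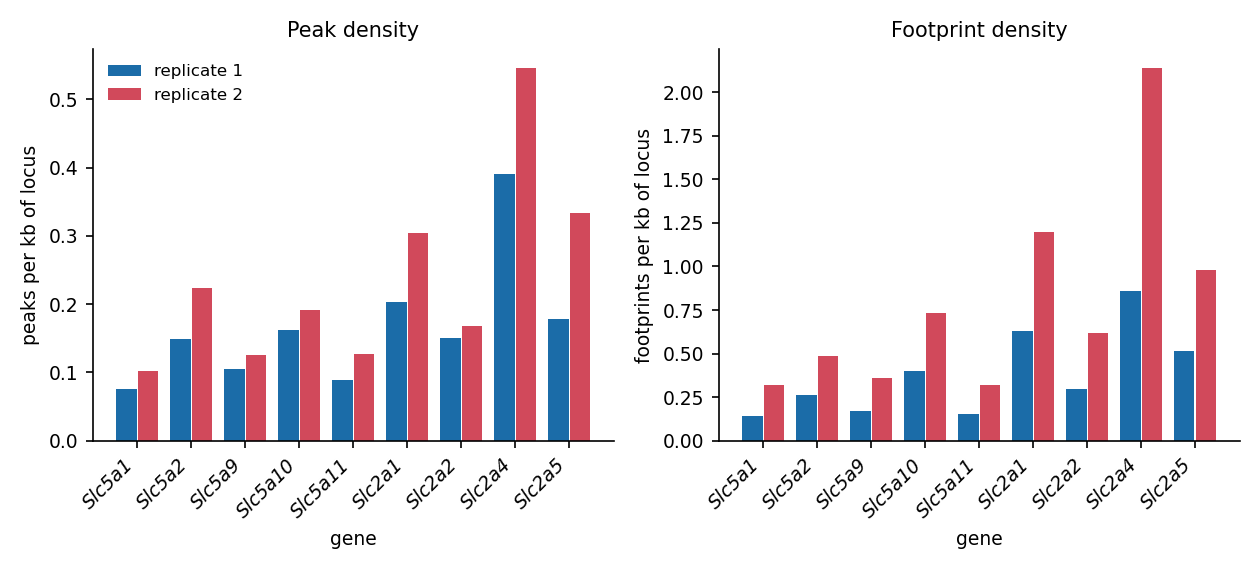
Peaks (left) and footprints (right) per kb of locus for each gene, as bars for replicate 1 (blue) and replicate 2 (red). Slc2a4 is the highest in both panels and both libraries, and every gene has more of each in replicate 2.

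Motif letters were counted on both strands in the 150 bp at the centre of each shared site and set beside all 125393 peaks of replicate 1. The letters CACGTG (E-box) were present in 10.8% of the 65 sites and in 4.41% of all peaks. They contain the hypoxia response core ACGTG, found in 16.9% against 10.4%. The HNF4 letters CAAAGTCCA were in 2 of the 65 sites (3.08% against 0.796%), in the Slc5a9 promoter site and in Slc2a2 intron 1. Their core CAAAGT, which they contain, was in 13.8% against 9.2%. The HNF4 direct repeat was in 1.54% against 0.333%. The CTCF consensus, likewise added after the sequences were seen, was in 4 sites (6.15% against 5.03%). In 3 of them, in Slc2a4, Slc2a5 and Slc5a10, it lay inside a footprint of both libraries (4.62% against 4.44% of all peaks). It overlaps the core CCACNAG in part, which was in 12.3% against 14.2%. Other letters were less frequent in the 65 sites than in all peaks: GGAATG (TEAD) in 3.08% against 9.41%, TTGGCA (NFI) in 7.69% against 12.7%, the nuclear receptor letters AGGTCA in 9.23% against 12.7%, and CCGGAAG (ETS) in 1.54% against 3.19%. The letters TGTTTAC (FOX), TCAAGGTCA (ESRR, which contains AGGTCA) and GCGCATGCG (NRF1) were in 0 of the 65 sites, against 1.84%, 0.363% and 0.556% of all peaks. Those seen more often were GGGCGG (SP/KLF), in 21.5% against 16.9%, TGANTCA (AP-1), in 7.69% against 4.95%, and CCAAT, in 18.5% against 17.4%. For some letters the direction was the opposite when only matches overlapping a footprint of both libraries were counted. AGGTCA was then in 4.62% of the sites against 1.8% of all peaks, and CCACNAG in 7.69% against 6.12%. GGGCGG was in 7.69% against 8.16%, and CAAAGTCCA in 0% against 0.206%. The other letters named here kept their direction, among them CACGTG (4.62% against 1.31%). Counts this small are a description of letters and not of bound factors.

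Related genes, chosen by name, give the setting. The counts below stand beside the 65.3% of all protein-coding genes with a promoter peak in both libraries, and the lists are short. Among the other SLC2 genes 6 of 8 had a promoter peak in both libraries. Slc2a8 (8.4 and 10), Slc2a13 (8.48 and 8.65) and the urate transporter gene Slc2a9 (4.85 and 11.5) were the highest, and Slc2a7 had none. Among the other SLC5 genes 4 of 8 did, led by the multivitamin transporter gene Slc5a6 (17.1 and 19.5), the myo-inositol transporter gene Slc5a3 (11 and 6.33) and Slc5a8 (3.73 and 3.17), while Slc5a4a, Slc5a4b and Slc5a5 had none. Of the partners and regulators 9 of 10 were open, among them Txnip (24.9 and 23.9), which limits glucose uptake, and Slc9a3r1 (18.1 and 22.9), a scaffold of the luminal membrane. Pdzk1ip1, the accessory protein of SGLT2, was at 4.5 and 4.22, and the factor gene Hnf4a (4.16 and 4.26) was open as well. Of the sugar-handling enzymes 11 of 13 were open, led by Tkfc (21.8 and 21.9) and the fructokinase gene Khk (13 and 15.8), both of fructose breakdown, and Hk1 (15.3 and 13.4). Hk3 had none. The median heights of these lists were 4.16 for the partners and 6.39 for the enzymes in replicate 1, against 1.58 for the transporters and 7.49 for all genes called.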

How the data were processed

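DNase-seq of 2 kidney libraries was analysed from the files deposited for each, on mm10 per the labels. The deposited peak lists give a signal per peak, the authors' height, and came from each library alone, per the file descriptions. Every footprint deposited by the authors carries the same q-value (false discovery rate), 0.01, taken as their threshold, and a further deposited list gives such rates base by base. Aligner, callers and settings: not given in the sources used here, nor whether the CAST/EiJ allele was allowed for. Depth is unknown.

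The longer peak list of each library was the main one and the stricter one an alternative. TSSs were GENCODE M21 basic; mm10 coordinates were checked against 21 chromosomes of GRCm38.p6, from which the sequences were read (RefSeq assembly). Overlap meant at least 1 bp. RefSeq promoter tables held 6 of the 9 genes (Slc5a1, Slc5a10, Slc5a11, Slc2a1, Slc2a2 and Slc2a5). Counts and percentiles were computed with Python 3.11.15, NumPy 2.4.6, pandas 2.3.3 and SciPy 1.17.1, and the counting functions were tested on simulated data. All 9 genes are named; of other lists, the rule names at most 3 genes with the tallest promoter peaks and at most 3 lacking one, and Pdzk1ip1, Hnf4a and the single marker genes given beside Slc2a1, Slc2a2 and Slc2a4 were added for their roles. The genes, lists and motifs were chosen with earlier results of these data known, and 3 of 19 motifs were added after the sequences were seen. Some listed genes and motifs are not reported here.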

Additional observations from a re-analysis of the deposited data

How the results depend on the processing

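With 2 libraries in 1 group there is no test to lose, so alternatives are read as moved or not. The count of genes with a promoter peak in both libraries ran from 7 (5′ end as the only TSS) to 9 (windows of 1 or 2 kb, or all annotated transcripts). The recurrence of replicate 1 peaks, 95.7%, stayed within its interval except under 50% reciprocal overlap, where it was 78.3%. The median peak density of 0.176 per kb was 0.131 on the stricter list and 0.145 with flanks of 50 kb, and 0.15 to 0.191 over leaving out a library in turn. The median log2 height ratio over peaks of replicate 1 was 0.27, and 0.22 and 0.25 under the alternatives. Single-gene promoter heights moved in 7 of 69 settings. For Slc5a2 and Slc5a9 the move was beyond the spread between the libraries. For Slc2a5, which has a peak in 1 library and so no spread, any change of value counted. The 69 include leaving out a library, which with n = 2 cannot move a height beyond the spread between the libraries. Those settings were fixed in advance as not moved and say nothing about stability. Footprint counts moved in 4 of 18 settings (gene body alone). No paired analysis was possible because there is a single group. Unknown depth limits what an absent peak in replicate 1 means, and heights of sites near a neighbour's TSS belong to either gene.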
